A study of Mus musculus with 6 samples.

Results

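The genes described here are 36 DNA repair genes, measured by RNA sequencing in LSK cells from mouse bone marrow. LSK cells lack mature lineage markers, carry c-kit and high Sca-1, and include the hematopoietic stem cells. They were taken by symbol from a fixed list of homologous recombination, Fanconi anemia, damage checkpoint, end joining and excision repair genes. All 36 were among the 16022 symbols of the deposited table, and all 36 were among the 12875 genes that passed the filter on low counts. The samples were 3 wild-type (WT) and 3 HDAC6 knockout (KO) samples. Hdac6 encodes a deacetylase that acts mainly in the cytoplasm. The labels give neither age, sex, strain nor pooling, nor which part of Hdac6 was deleted, nor whether the replicates came from separate mice. P-values therefore measure the spread between these samples, which may be technical.

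A DNA double-strand break can be repaired by homologous recombination, which copies the intact sister chromatid, or by non-homologous end joining, which ligates the ends directly. The Fanconi anemia proteins recognise DNA interstrand crosslinks that block replication forks, and hand the opened crosslink to the recombination proteins. Bone marrow depends on this pathway: inherited loss of a Fanconi gene causes marrow failure with loss of hematopoietic stem cells. Many recombination and Fanconi genes are transcribed mainly in S phase, so their mRNA level in a cell population also depends on how many of its cells are dividing.

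Hdac6, the targeted gene, stood at 68.0, 58.2 and 54.3 CPM (counts scaled to library size, with TMM factors) in WT replicates 1 to 3. It stood at 9.62, 7.69 and 11.3 CPM in KO replicates 1 to 3, so each library matched its label. Its log2 fold change was -2.66 (SE 0.19, edgeR adjusted p = 0.000594). The defining LSK genes Kit and Ly6a were expressed in all 6 libraries, and for both the groups did not overlap. Kit stood at 1127 to 1366 CPM in WT and 725 to 1081 CPM in the KO, and Ly6a, which encodes Sca-1, at 60.3 to 68.7 CPM in WT and 82.0 to 119 CPM in the KO. Of the 11 LSK markers, 7 lay below WT (median -0.24 on the log2 scale), with 5 lower and 2 higher at an unadjusted p under 0.05 and 0 called by edgeR. Over all tested genes 6.15% were lower and 7.24% higher at that p. Of 13 T and NK cell markers 10 were tested, and 7 of them lay above WT (median 0.92), with 5 higher and 1 lower at an unadjusted p under 0.05 and 0 called by edgeR. They summed to 353 to 396 CPM in WT and 332 to 428 CPM in the KO. Cd3e, Cd3d and Cd3g, which define T cells, were at or below 0.471 CPM, whereas Nkg7 stood at 256 to 312 CPM over the 6 libraries. Il2rb, an interleukin receptor gene, stood at 2.87 to 5.76 CPM in WT and at 8.77, 23.6 and 33.3 CPM in KO replicates 1 to 3. The 10 neutrophil markers summed to 39.6 to 107 CPM in WT and 12.4 to 28.9 CPM in the KO. KO replicate 2 stood apart in monocyte and macrophage markers, which summed to 1276 CPM there and to 318 to 740 CPM elsewhere. The part of these marker differences in the repair gene values was not tested. KO replicate 3 was closer in its counts to each of the WT libraries (chi-square over degrees of freedom of 24.9 to 34.2) than to the other KO libraries (51.5 and 55.8). Total counts ran from 25993971 to 28743672 per library.

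Expression of the repair genes differed little between the genotypes. By edgeR 0 of the 36 passed an adjusted p of 0.05, where 0.00777% of all tested genes (Hdac6 alone) did. At an unadjusted p under 0.05 there was 1 member, Fance, on the higher side, and 0 on the lower. Over all tested genes that share was 13.4%, made up of 7.24% higher and 6.15% lower. DESeq2, limma-voom and limma on the deposited FPKM values also called 0 members. Over the whole table DESeq2 called 120 genes higher and 61 lower, and each limma fit called 0 higher and 1 lower. The median log2 fold change of the 36 was 0.06, beside -0.0034 over all tested genes, and single members ran from -0.30 for Fancf to 0.93 for Fance. Above WT were 23 members and below it 13, where 49.5% of all tested genes lay above and 50.5% below. That split follows the scaling: 24 were above WT with RLE factors, 19 with upper-quartile factors and 17 on the deposited FPKM scale. The median of the members exceeded that of all genes by 0.06 with each set of factors and by 0.05 on the FPKM scale. Brca2, Rad51c, Xrcc2, Fancl, Fancm, Xrcc6, Parp1 and Ercc1 changed sign with the scaling, and the remaining 28 members did not.

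The precision was enough to bound most members. The 95% interval of the fold change lay within 2-fold in either direction for 33 of 36 members, the exceptions being Fance, Fancf and Lig4. It lay within 1.5-fold for 24 members. Over all tested genes these shares were 69.4% and 42.8%. The 3 values of one genotype all lay above those of the other for 1 member on the higher side, Fance, and 2 on the lower side, Rad50 and Trp53bp1. Over all tested genes the groups did not overlap in 18.6%, with 8.86% on the higher and 9.7% on the lower side.

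**Figure D1:**
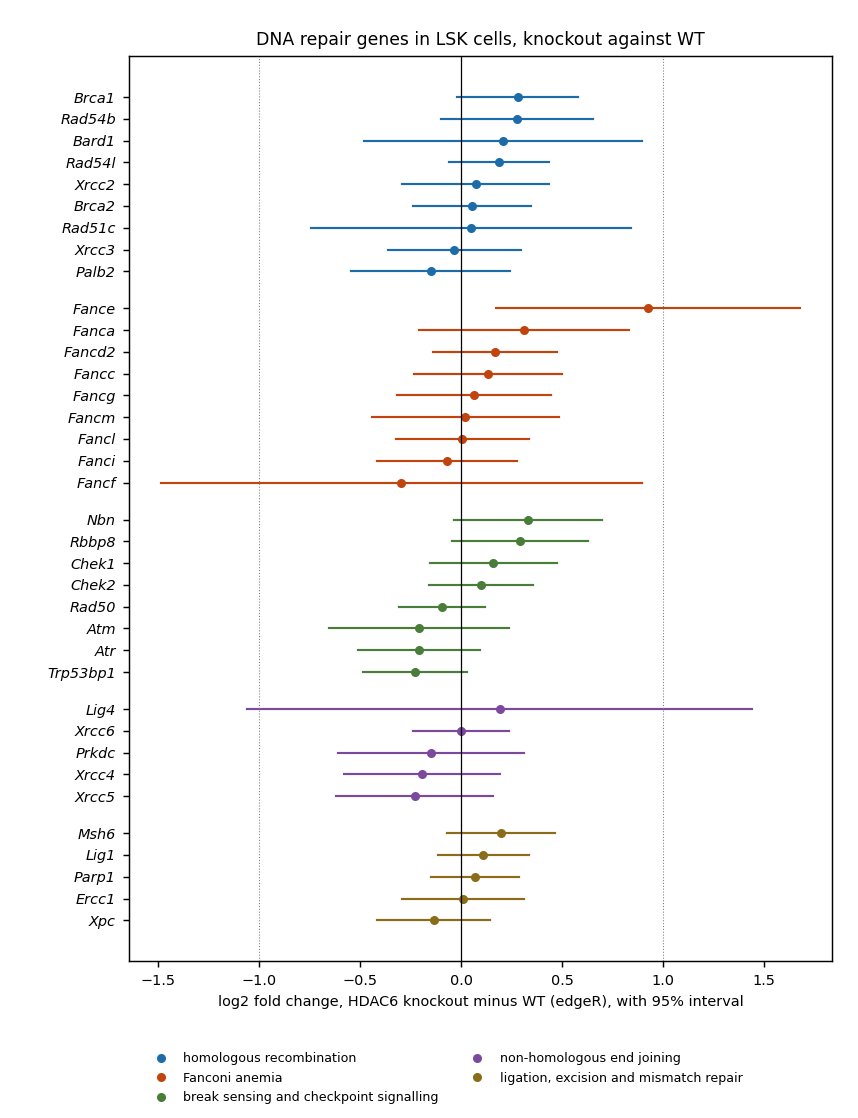
Log2 fold change (x axis, KO minus WT, edgeR) of each of the 36 repair genes, ordered within 5 roles; lines are 95% intervals from 3 libraries per genotype and dotted lines mark 2-fold. Points run from -0.30 (Fancf) to 0.93 (Fance), and the interval of Fance is the only one that leaves out 0.

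Levels of different genes were compared per transcript length, as deposited FPKM. Parp1, whose protein binds DNA breaks and marks them with poly-ADP-ribose, had the highest level, with 144 ± 2.47 FPKM in WT and 143 ± 9.19 FPKM in the KO (SD, n = 3 each). Xrcc6, which encodes the Ku70 subunit of the Ku end-binding complex, followed with 118 ± 12.8 FPKM in WT, and Lig1, the replicative DNA ligase gene, with 108 ± 6.24 FPKM (SD, n = 3 each). The spreads of Xrcc6 and Lig1 overlapped. The Ku partner gene of Xrcc6, Xrcc5, which encodes Ku80, was at 32.8 ± 2.64 FPKM and the catalytic kinase gene Prkdc at 6.36 ± 2.05 FPKM in WT (SD, n = 3). The mean ± SD ranges of the damage kinase genes Atm (5.30 ± 1.45 FPKM) and Atr (6.20 ± 0.602 FPKM) overlapped in WT (SD, n = 3). At the low end were 5 genes under 5 FPKM in WT: Rad51c, Fancm, Bard1, Fancf and, lowest, Lig4 at 0.857 ± 0.696 FPKM (SD, n = 3).

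**Figure D2:**
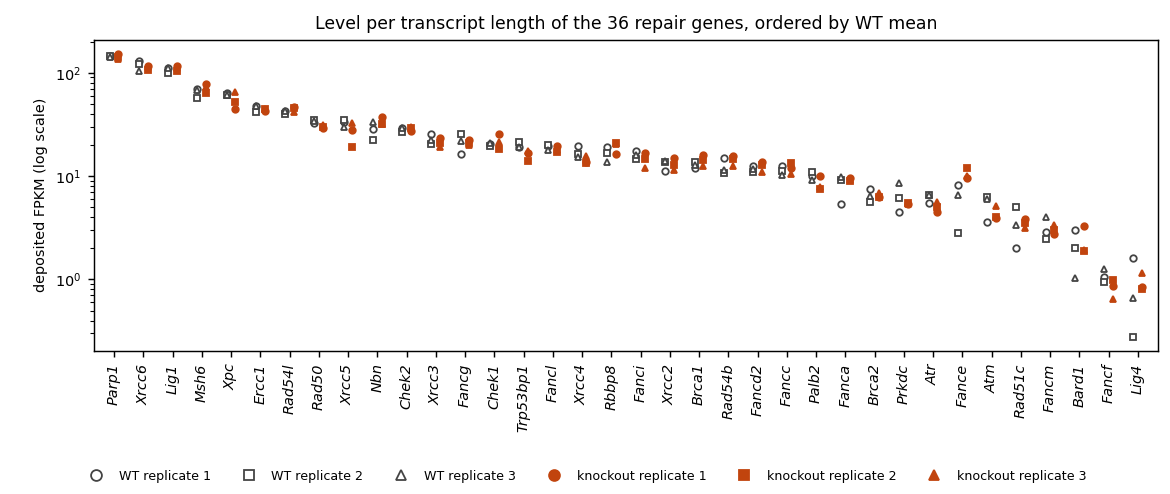
Deposited FPKM (y axis, log scale) of the 36 repair genes in each of the 6 libraries, ordered by WT mean; open symbols are WT, filled symbols KO, and the symbol shape gives the replicate number. Levels run from Parp1 at 144 FPKM to Lig4 at 0.857 FPKM in the WT mean, and open and filled symbols lie close together for most genes.

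Of the 9 homologous recombination members 7 lay above WT, and the median was 0.07 on the log2 scale. None passed by edgeR or had non-overlapping groups. Brca1, whose protein promotes end resection at breaks, measured 68.1, 77.4 and 78.9 CPM in WT, and 103, 91.1 and 77.7 CPM in KO libraries. KO replicates 1 and 2 lay above all WT libraries and KO replicate 3 lay among them. The log2 fold change was 0.28 (SE 0.13, edgeR adjusted p = 0.391), with a 95% interval of the fold change of 0.985 to 1.49. Rad54l, a DNA translocase gene, measured 117, 105 and 116 CPM in WT, and 136, 131 and 116 CPM in KO libraries. Its log2 fold change was 0.18 (SE 0.11, edgeR adjusted p = 0.481), and KO replicate 3 again lay among the WT libraries. Rad54b, its paralog, measured 40.1, 29.1 and 31.5 CPM in WT, and 44.5, 42.3 and 35.1 CPM in KO libraries, a log2 fold change of 0.28 (SE 0.17, edgeR adjusted p = 0.486). WT replicate 1 lay above KO replicate 3, so the groups overlapped. Without KO replicate 3 the log2 fold changes of Brca1, Rad54l and Rad54b were 0.38, 0.25 and 0.37, and none passed (edgeR adjusted p = 0.155, 0.247 and 0.285).

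The remaining recombination members had larger p-values. Brca2, whose protein acts with BRCA1 in recombination, had means of 68.2 ± 9.51 CPM (WT) and 70.8 ± 1.77 CPM (KO; SD, n = 3 each), with a 95% interval of 0.848 to 1.27 in fold. Palb2, which links BRCA1 to BRCA2, had a log2 fold change of -0.15 (SE 0.18), and Bard1, the obligate partner of BRCA1, one of 0.21 (SE 0.31). The genes Rad51c, Xrcc2 and Xrcc3 had log2 fold changes of 0.05, 0.07 and -0.04. Rad51c spread from 4.56 to 13.4 CPM among WT libraries, and its interval reached from 0.597 to 1.79 in fold.

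Of the 9 Fanconi anemia members 7 lay above WT, Fancl and Fancm only at 0.01 and 0.02, and the median was 0.06 on the log2 scale. Fance, a core complex subunit that binds FANCD2, measured 14.2, 4.88 and 11.3 CPM in WT, and 17.6, 22.3 and 17.7 CPM in KO libraries. Each KO library lay above each WT library, and WT replicate 2 was the lowest of all. The log2 fold change was 0.93 (SE 0.34), with a 95% interval of 1.128 to 3.20 in fold, an unadjusted p of 0.0207 and an edgeR adjusted p of 0.322. DESeq2 gave an adjusted p of 0.142. Without WT replicate 2 the log2 fold change was 0.60 and without WT replicate 1 it was 1.25. On the FPKM scale it was 5.83 ± 2.75 in WT and 10.6 ± 1.36 in the KO (SD, n = 3 each).

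None of the other core complex genes passed by edgeR or had non-overlapping groups. Fanca, a core scaffold gene, measured 21.65, 38.01 and 45.3 CPM in WT, and 45.8, 44.3 and 40.2 CPM in KO libraries. WT replicate 1 alone was low, and the log2 fold change was 0.31 (SE 0.23, edgeR adjusted p = 0.571). Fancc (0.13), Fancg (0.06) and the ubiquitin ligase gene Fancl (0.01) had small positive log2 fold changes. Fancf had -0.30 (SE 0.54) from 26 to 49 counts per library, with an interval of 0.356 to 1.86 in fold. Fancm, the translocase that recruits the core complex to DNA, had a log2 fold change of 0.02 (SE 0.21). The targets of the core complex, which are monoubiquitinated as a pair, lay on opposite sides. Fancd2 measured 58.2, 51.4 and 55.8 CPM in WT, and 69.5, 63.2 and 52.9 CPM in KO libraries (log2 fold change 0.17, SE 0.14, edgeR adjusted p = 0.606). Fanci had a log2 fold change of -0.07 (SE 0.16). Neither passed by edgeR.

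Of the 8 break sensing and checkpoint members 4 lay above and 4 below WT, and the median was 0.0025 on the log2 scale. Nbn, a subunit of the MRE11 complex that senses breaks, measured 65.6, 50.1 and 76.8 CPM in WT, and 91.1, 76.7 and 74.0 CPM in KO libraries. Its log2 fold change was 0.33 (SE 0.17, edgeR adjusted p = 0.406), and WT replicate 3 lay within the KO range. Rad50, which encodes another subunit of that complex, measured 156, 167 and 168 CPM in WT, and 152, 153 and 154 CPM in KO libraries. Its groups did not overlap, but the log2 fold change was only -0.09 (SE 0.10, edgeR adjusted p = 0.682). Rbbp8, which encodes CtIP, the activator of end resection, measured 59.1, 51.6 and 43.5 CPM in WT, and 55.0, 69.9 and 63.6 CPM in KO libraries, a log2 fold change of 0.29 (SE 0.15, edgeR adjusted p = 0.420).

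Trp53bp1 encodes 53BP1, which holds back resection. It measured 118, 135 and 115 CPM in WT, and 109.5, 95.5 and 109 CPM in KO libraries. Every KO library lay below every WT library, with a log2 fold change of -0.23 (SE 0.12, edgeR adjusted p = 0.410). The kinase genes Atm and Atr had log2 fold changes of -0.21 each (SE 0.20 and 0.14). Their effector kinase genes Chek1 and Chek2 had 0.16 (SE 0.14) and 0.10 (SE 0.12). Chek1 stood at 85.4 CPM in KO replicate 1 and at 61.2 to 67.7 CPM in the other 5 libraries.

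Of the 5 end joining members 4 lay below WT, Xrcc6 only at -0.0029, and the median was -0.15 on the log2 scale. Xrcc5 measured 76.3, 79.3 and 69.2 CPM in WT, and 69.2, 46.6 and 75.8 CPM in KO libraries, so KO replicate 2 set the difference (log2 fold change -0.23, SE 0.17, edgeR adjusted p = 0.572). Without that library the log2 fold change was -0.05. Its partner Xrcc6 had means of 216 ± 20.9 CPM (WT) and 215 ± 9.35 CPM (KO; SD, n = 3 each), and its interval of 0.847 to 1.18 in fold was among the narrowest. Xrcc4, the scaffold gene of the end joining ligase, measured 25.8, 21.0 and 20.4 CPM in WT, and 19.2, 18.6 and 20.9 CPM in KO libraries (log2 fold change -0.20, SE 0.17, edgeR adjusted p = 0.640). Lig4, the ligase gene itself, spread from 1.03 to 6.10 CPM within WT, and its interval of 0.480 to 2.72 in fold sets no useful bound. Prkdc measured 51.2, 71.3 and 100.5 CPM in WT, and 67.2, 69.4 and 64.6 CPM in KO libraries. Its log2 fold change of -0.15 (SE 0.21, edgeR adjusted p = 0.770) turned to 0.14 without WT replicate 3, the library with the highest value.

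Of the 5 ligation, excision and mismatch repair members 4 lay above WT, and the median was 0.07 on the log2 scale. They held 5 of the 6 highest FPKM levels among the members in WT, with SE of 0.10 to 0.14. Msh6, a mismatch recognition gene, measured 276, 223 and 275 CPM in WT, and 328, 269 and 289 CPM in KO libraries (log2 fold change 0.19, SE 0.12, edgeR adjusted p = 0.492). Lig1 measured 310.4, 279 and 318 CPM in WT, and 350.5, 309 and 319 CPM in KO libraries (0.11, SE 0.10, edgeR adjusted p = 0.646). Xpc, the damage sensor gene of global nucleotide excision repair, measured 214, 202 and 205 CPM in WT, and 159, 186 and 219.5 CPM in KO libraries. KO replicate 1 was the lowest and KO replicate 3 the highest of all libraries, and the log2 fold change was -0.14 (SE 0.13, edgeR adjusted p = 0.649). Ercc1, a subunit of the excision nuclease, had 38.9 ± 3.57 CPM in WT and 39.1 ± 0.688 CPM in the KO (SD, n = 3 each). Parp1 had a log2 fold change of 0.07, with an interval of 0.900 to 1.22 in fold.

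**Figure D3:**
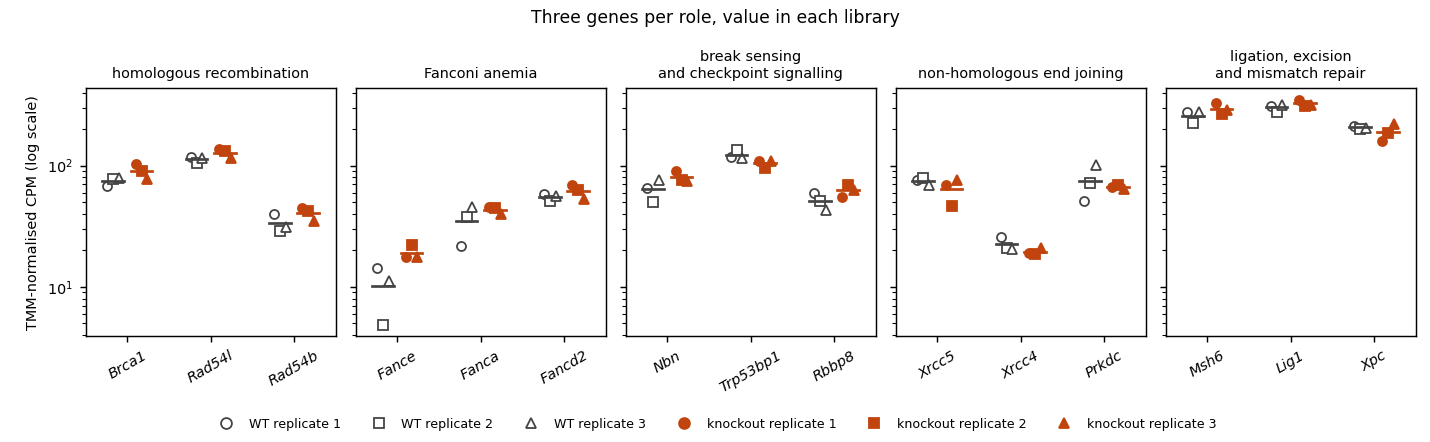
TMM-normalised CPM (y axis, log scale) in each library for the 3 members with the smallest edgeR p in each of the 5 roles; horizontal bars are the means of 3 libraries, open symbols WT and filled symbols KO. Fance and Trp53bp1 have groups that do not overlap, and the remaining 13 genes overlap.

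Several members varied more among the WT libraries than between the genotypes. In WT the highest library exceeded the lowest by more than 1.5-fold for 10 members, and in the KO for 2. The shares over all tested genes were not taken for this measure, so the counts are not a trait of the repair genes. The widest in WT were Lig4 (5.95-fold), Rad51c (2.94-fold), Fance (2.91-fold), Fanca (2.09-fold) and Prkdc (1.96-fold). The KO libraries spanned 1.38-fold, 1.16-fold, 1.27-fold, 1.14-fold and 1.07-fold for the same genes. Low values lay with WT replicate 1 for Rad51c, Fanca, Prkdc and Atm, and with WT replicate 2 for Fance and Lig4. The SD of CPM was larger in WT for 20 of 36 members, and for 53.6% of all tested genes.

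The libraries of the KO group also differed from one another. KO replicate 1 held the highest value for 14 of the 36 members, KO replicate 2 for 4 and KO replicate 3 for 1. Above all WT libraries lay 16 members in KO replicate 1, 9 in KO replicate 2 and 7 in KO replicate 3. Below all WT libraries lay 6, 8 and 7 members in the same order, so only KO replicate 1 leaned clearly upward. The shares over all tested genes were not taken for these counts, so they cannot be set against a background. As the mean log2 deviation from each gene's mean, the 36 members stood at -0.02, -0.10 and 0.0050 in WT replicates 1 to 3. They stood at 0.10, 0.02 and -0.01 in KO replicates 1 to 3. The 9 homologous recombination members spread most, at 0.20, 0.05 and -0.09 in the KO, against -0.05, -0.03 and -0.10 in WT. Without KO replicate 3 the member median was 0.08 with 25 above WT, and the groups did not overlap for 7 members on the higher and 6 on the lower side. Of all genes tested at that setting, 20.3% did not overlap on the higher and 20% on the lower side, so both member shares were near this background. Without KO replicate 3, 30 genes were called higher and 14 lower among the 13125 tested, and 0 of the 36 members. With so few calls in the whole table, 0 of 36 is near the background.

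The proliferation genes had the same order of KO libraries. Of 30 S phase and proliferation genes, 28 lay above WT (median 0.25 on the log2 scale). The groups did not overlap for 14, all on the higher side (46.7%, beside 8.86% of all tested genes). None passed by edgeR. At an unadjusted p under 0.05 there were 13, all higher (43.3%, beside 7.24% of all tested genes). The mean log2 deviation of the 30 genes was 0.32, 0.16 and -0.05 in KO replicates 1 to 3 and -0.17, -0.18 and -0.07 in WT. Ccna2, the S and G2 phase cyclin A2 gene, measured 154, 105 and 189 CPM in WT, and 323, 259 and 206 CPM in KO libraries. Cdc45, a subunit of the replicative helicase, had a log2 fold change of 0.42 (SE 0.14), while Mki67 had -0.03 (SE 0.11). Of 12 E2F, DP and RB family genes 9 lay above WT with a median of 0.25. E2f8 (0.43), Tfdp1 (0.50) and E2f4 (0.52) had the smallest p, and none passed by edgeR. In bulk samples, more cells in S phase and more of an mRNA per cell cannot be told apart, and the part of proliferation in the values of the repair genes was not tested.

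**Figure D4:**
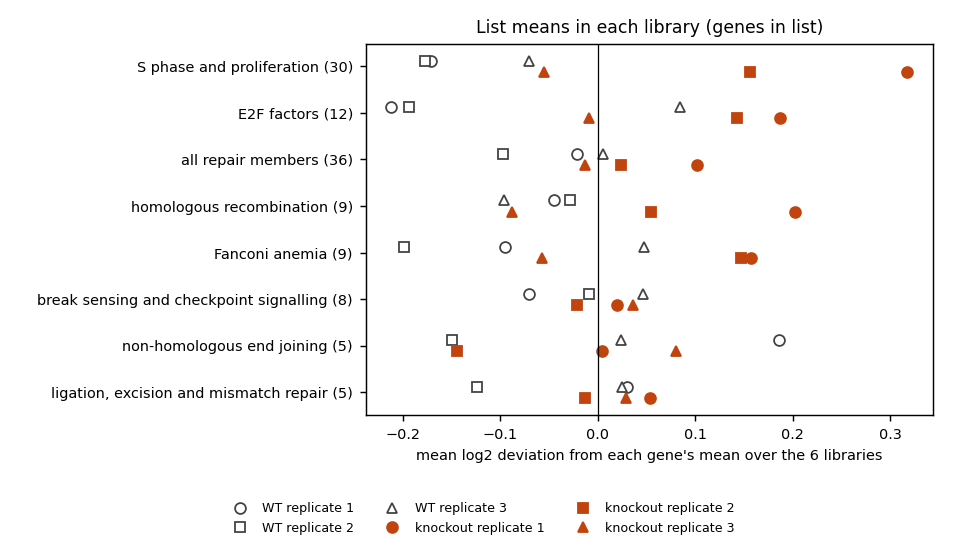
Mean log2 deviation (x axis) of the genes of each list from their own mean over the 6 libraries, with the number of genes in brackets; open symbols are WT and filled symbols KO, and the shape gives the replicate number. The S phase list separates KO replicates 1 and 2 (0.32 and 0.16) from WT. For the 36 repair members KO replicates 1 and 2 also lie above all WT libraries, at 0.10 and 0.02 against -0.10 to 0.0050. KO replicate 3 lies among the WT libraries at -0.01.

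E2F transcription factors bind promoters of S phase genes. The RefSeq promoter table (build GRCm38.p6) matched 28 of the 36 members by symbol, with 33 promoters. Rad54b, Xrcc2, Fancd2, Rad50, Nbn, Rbbp8, Prkdc and Xpc had no match. The 250 bases before each start were searched on both strands for the E2F core (TTCCCGC or TTGGCGC). It was found in 9 of the 33 member promoters (27.3%), in 5.62% of all 32851 promoters and in 9.52% of the promoters of tested genes. In the companion repair genes described below it was found in 24 of 118 promoters (20.3%), and in the S phase and proliferation list in 12 of 26 (46.2%). The members that hold it were Bard1, Brca2, Chek2, Fancf, Fancg, Fancm, Rad51c, Xrcc4 and Xrcc6. Their median log2 fold change was 0.05 with 6 of 9 above WT, and the 19 matched members without it had a median of 0.07 with 12 above WT. Over all tested genes with a matched promoter, 57.1% of 1187 with the core lay above WT (median 0.05), and 48.6% of 9145 without it (median -0.0088). No test was made between them. CCAAT was present in 39.4% of member promoters, 35.8% of promoters of tested genes and 33.8% of all. TTTGAA was present in 3.03%, 11.1% and 16% of these, and GGCGGG in 66.7%, 54.3% and 32.5%. The E2F core can share bases with GGCGGG or CCAAT, and each was counted on its own. A match of letters is a description, not a shown binding site.

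The sequences show windows with and without the core. Given first, with the core in capitals, are the 2 core-holding members with the smallest p, then the 2 members with the smallest p of all 36, Fance and Brca1, whose 250 bases hold no such core. The Xrcc4 promoter (chr13:90089609-90089858, minus strand) holds TTCCCGC starting 100 bases before the start, and that of Chek2 (chr5:110839733-110839982, plus strand) holds it on the opposite strand 152 bases before the start. Those of Fance (chr17:28313280-28313529, plus strand) and Brca1 (chr11:101551956-101552205, minus strand) follow. All 4 are given 5′ to 3′ along the gene, from GRCm38.p6.
Xrcc4: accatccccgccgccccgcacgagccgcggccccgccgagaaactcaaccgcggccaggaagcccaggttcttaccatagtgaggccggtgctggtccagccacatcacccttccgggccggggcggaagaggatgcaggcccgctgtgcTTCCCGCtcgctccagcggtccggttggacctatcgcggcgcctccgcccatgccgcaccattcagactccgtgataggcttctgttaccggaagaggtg
Chek2: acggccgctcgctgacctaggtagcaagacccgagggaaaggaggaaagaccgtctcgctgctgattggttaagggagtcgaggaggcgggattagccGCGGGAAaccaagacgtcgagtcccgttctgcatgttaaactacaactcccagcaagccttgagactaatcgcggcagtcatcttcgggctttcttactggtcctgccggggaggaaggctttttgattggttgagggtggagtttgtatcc
Fance: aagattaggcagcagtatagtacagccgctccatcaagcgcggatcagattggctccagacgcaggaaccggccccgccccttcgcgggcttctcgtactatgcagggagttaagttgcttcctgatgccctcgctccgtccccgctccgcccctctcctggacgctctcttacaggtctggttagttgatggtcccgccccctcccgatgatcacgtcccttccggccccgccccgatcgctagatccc
Brca1: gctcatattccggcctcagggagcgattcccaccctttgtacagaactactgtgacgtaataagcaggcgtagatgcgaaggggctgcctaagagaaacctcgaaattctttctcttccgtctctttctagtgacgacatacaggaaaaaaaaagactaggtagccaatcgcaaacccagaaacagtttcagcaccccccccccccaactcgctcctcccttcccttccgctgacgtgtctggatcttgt
The log2 fold changes were 0.93 for Fance, the largest of the members, 0.28 for Brca1, -0.20 for Xrcc4 and 0.10 for Chek2. These windows were picked by smallest p as well as by holding or lacking the core, so their fold changes do not compare the 2 kinds of promoter. A link between core and fold change was not tested. In these windows Brca1 and Fance each hold 1 CCAAT, Chek2 holds 2 and Xrcc4 holds none.

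Further repair genes were taken from a companion list of 128 genes with the same 5 roles, of which 127 were tested. Above WT lay 75 and below it 52. Their median was 0.05 on the log2 scale, and 0 passed by edgeR. By role, 20 of 32 recombination, 8 of 17 Fanconi and 20 of 28 checkpoint companions lay above WT. So did 5 of 10 end joining and 22 of 40 excision companions. The role medians were 0.08, -0.04, 0.07, -0.0053 and 0.02 in that order. At an unadjusted p under 0.05 were 9 higher and 8 lower genes (7.09% and 6.3%). Over all tested genes these shares were 7.24% and 6.15%, so both companion shares were near this background. The groups did not overlap for 14 companions on the higher and 10 on the lower side, beside 8.86% and 9.7% of all tested genes. The companions named below were picked as the 2 with the smallest edgeR p in their role. Among partners of the members, Rif1, the effector of 53BP1, measured 88.0, 88.6 and 87.7 CPM in WT, and 69.8, 68.8 and 71.7 CPM in KO libraries. Both groups were tight and did not overlap, with a log2 fold change of -0.33 (SE 0.11, edgeR adjusted p = 0.307). Fan1, a nuclease gene of crosslink repair, measured 20.3, 15.1 and 20.7 CPM in WT, and 12.5, 9.90 and 12.9 CPM in KO libraries (-0.67, SE 0.21, edgeR adjusted p = 0.307). Faap24, the partner gene of Fancm, had a log2 fold change of 0.39 (SE 0.16).

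Of the recombination companions, Recql4, a helicase gene, had a log2 fold change of 0.49 (SE 0.19) and Swi5, another recombination gene, 0.34 (SE 0.11). Tipin, a replication fork protection gene, had means of 166 ± 11.6 CPM (WT) and 205 ± 13.3 CPM (KO; SD, n = 3 each). The KO libraries lay above all WT libraries for these 3 genes. Of the end joining companions, Aptx, which reverses failed ligations, had -0.36 (SE 0.15) and Tdp2, which removes trapped topoisomerase, 0.43 (SE 0.19), with overlapping groups in both. Of the excision companions, Tdg, the thymine DNA glycosylase gene, measured 140, 120 and 166 CPM in WT, and 197, 219 and 187 CPM in KO libraries. Its log2 fold change of 0.50 (SE 0.13) had an edgeR adjusted p of 0.298. Uvssa, a gene of transcription-coupled repair, measured 27.1, 30.8 and 17.2 CPM in WT, and 11.02, 14.1 and 16.2 CPM in KO libraries (-0.86, SE 0.25, edgeR adjusted p = 0.298). In both genes the groups did not overlap.

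Counting may have mixed some members with their neighbours. In the GENCODE M21 annotation of GRCm38, exons of 13 members share bases with another tested gene. Rad54b shares 2068 bases with Fsbp on the same strand. Trp53bp1 shares 2130 bases with Tubgcp4, Rad54l 1184 with Lrrc41, Fanci 921 with Polg and Fanca 920 with Zfp276, all on the opposite strand. Whether counting used strand is not stated, so the levels of these genes are uncertain. Deposited counts were not whole in at least 1 library for 16 members, among them Rad54b, Rad54l and Trp53bp1 in all 6 libraries, but not for Brca1, Brca2 or Fance. Fance shares 104 exon bases with an antisense transcript that was not tested here.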

How the data were processed

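RNA was sequenced from LSK cells of 3 WT and 3 HDAC6 knockout samples, extracted with Trizol and made into libraries by standard Illumina methods, per the labels' protocols. GRCm39, featureCounts 2.0.3, HISAT2 2.2.1, DESeq2 and SAMtools 1.13 appear, without roles, in the submitters' processing notes. Annotation and treatment of shared reads: not given in the sources used here. Per the file headers, each symbol has a deposited estimated count and FPKM in each library. Of the estimated counts that the authors deposited, 19.6% to 20.9% in a library had decimals, and all were rounded. The authors' FPKM values served for levels between genes and for 1 alternative.

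Knockout was compared with WT over all genes with edgeR 4.0.16 in R 4.3.3 (filterByExpr with a minimum count of 10, TMM, robust quasi-likelihood fit with legacy on, Benjamini-Hochberg threshold 0.05). SE is the log2 fold change over the root of F. Intervals use the fit's degrees of freedom. Alternatives used DESeq2 1.42.0 and limma 3.58.1 (log2 with a pseudocount of 1). The counting limit of 3 counts was 0.104 to 0.115 CPM per library, counting error only. No pair of libraries within a group agreed within counting noise (33.8 to 55.8 as chi-square per degree of freedom), so none was treated as a repeat deposit of another. This does not bear on whether the samples came from separate mice. Members and lists were chosen with earlier results of these data known. Values in each library are given for the 3 members per role with the smallest edgeR p, and 2 companion genes per role are named by the same measure. Rad50, Chek1 and the proliferation genes named with values were chosen after their values were seen. In 5 simulations of the 12875 genes with 200 changed each, edgeR recovered 21.5%, 62.1% and 80.9% at 1.5-fold, 2-fold and 4-fold, with 7.71% of calls false. Promoter orientation was checked against GENCODE transcripts: 29 of 33 starts matched along the gene and 0 on the reverse strand alone.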

Additional observations from a re-analysis of the deposited data

How the results depend on the processing

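Across all 16 alternatives, 0 members were called in either direction, and the 15 members given with values in each library kept their sign in 224 of 225 refits. The exception was Prkdc, which ran from -0.36 to 0.14 with 1 library left out, above 0 only without WT replicate 3. Hdac6 was called in every refit. DESeq2 called 120 genes higher and 61 lower among the 16022 symbols of the whole table, and 0 members. With so few calls in the whole table, 0 of 36 is near the background. When 1 library at a time was left out, genes called higher ran from 0 to 30 and lower from 1 to 14, the highest without KO replicate 3. Without KO replicate 1 they were 1 higher and 3 lower. The member median was -0.0041 on the FPKM scale, where the median of all genes was -0.05. Members with non-overlapping groups on the higher side numbered 2 with RLE factors, 2 with DESeq2 factors and 3 with no filter on low counts. On the lower side there was 1 with no filter. With 1 library left out they ran from 2 to 7 higher and from 2 to 6 lower, since fewer libraries separate more easily. The share over all genes was taken only with all 6 libraries and TMM factors, and without KO replicate 3. The counts at the other settings therefore cannot be set against a background. With the replicate number as a block the member median was 0.06, with 24 above WT, and 0 genes were called higher and 1 lower. Same-numbered samples had r across genes of 0.08, -0.07 and -0.19, and differently numbered samples ran from -0.13 to 0.18. With 3 libraries per group, a weak shared effect could be missed, so these values cannot decide whether the numbers are a pairing. Depth limits Fancf (26 to 49 counts) and Lig4 (29 to 170 counts), which the filter of 5 CPM in 3 libraries removed.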
